A study of Homo sapiens with 18 samples.

Results

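The IGF binding proteins examined here are IGFBP2, IGFBP3, IGFBP4, IGFBP5, IGFBP6 and IGFBP7, taken as the entries listed under the gene IDs of these symbols. They are 6 of 23604 genes listed in at least 1 of 8 RNA-Seq libraries, and all 6 were among the 16948 genes that passed a filter on low counts and were tested. IGFBP1 was listed in none of the libraries. The cells were MCF10A-ErSrc, an immortalised human breast epithelial line that carries a v-Src kinase fused to part of the oestrogen receptor, so that tamoxifen switches the kinase on. There were 4 groups of 2 biological replicates each. Tamoxifen was given to transform the TAM cells and withheld from the NT (not treated) cells. Cells of either state were kept for 4 h in DMSO or in triptolide (TPL, labelled TPL-125nM), which binds the XPB subunit of the transcription factor TFIIH. All 4 groups shared the same single parental line and a medium with insulin, epidermal growth factor, hydrocortisone, cholera toxin, serum and puromycin. RNA polymerase II (RNAPII) ChIP-Seq of the same conditions was available as a list of peaks over transcription start sites (TSSs) for each condition.

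IGF binding proteins are secreted carriers of the insulin-like growth factors IGF1 and IGF2. They hold the growth factors away from the type 1 receptor (IGF1R), and proteases such as PAPPA release them again by cutting the carriers. IGFBP3 is the main carrier in serum, IGFBP6 prefers IGF2, and IGFBP7 binds IGFs weakly and is often placed outside the classical family. Several members also act on cells without an IGF, through matrix or surface partners.

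Total expected counts were between 7461309 and 8349448 per library. The 11 epithelial markers checked (among them KRT5, KRT17 and EPCAM) were above 0 in all 8 libraries, with a summed level between 4386 and 19510 FPKM. Their levels varied widely, with KRT5 between 434.04 and 6249.55 FPKM. TP63 was at 0.28 to 0.89 FPKM with TPL and at 13.16 to 24.19 without. Of 3 luminal markers, ESR1 was at 36.94 to 248.49 FPKM, GATA3 at 1.71 to 6.38 and PGR at most 0.01. The source of the ESR1 reads was not tested. FPKM are fragments counted per transcript length and library total, so that they can be compared between genes. TAM replicate 2 and TAM + TPL replicate 1 stood apart from the other replicate of their group in IGFBP5 and IGFBP2. COL1A2, one of 6 fibroblast markers, was at 1.05 and 1.15 FPKM in those libraries and between 0 and 0.02 FPKM in the other 6. The summed level of the fibroblast list was 6.60 FPKM in TAM replicate 2 against 4.29 in TAM replicate 1. Besides COL1A2, DCN (4.87 against 3.67 FPKM) and COL1A1 were higher in TAM replicate 2, COL3A1 was lower, and LUM and PDGFRB were equal. In TAM + TPL the sum was 7.39 FPKM in replicate 1 against 6.62 in replicate 2. That excess rested on COL1A2. DCN (4.88 against 5.15 FPKM), COL1A1, LUM and PDGFRB were lower in TAM + TPL replicate 1, and COL3A1 was at 0.05 against 0.02 FPKM. In the NT and NT + TPL libraries the sum was 7.88 to 13.04 FPKM. COL3A1, a defining collagen of fibroblasts, was at most 0.05 FPKM in all 8 libraries. The summed level of 3 endothelial markers was at most 1.73 FPKM with CDH5 at 0 throughout, and that of 3 leukocyte markers was between 7.19 and 19.93 FPKM, most of it CD14 (5.75 to 18.60 FPKM). Whether RNA from other cells contributed to the 2 libraries was not tested, and the members' calls are given with and without them. The fit without them has 1 library left in TAM and 1 in TAM + TPL, so calls can be lost there through fewer replicates alone.

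The 6 genes lie at 5 places in the genome (build GRCh37, GENCODE release 44). IGFBP2 (chr2:217497551-217529159, plus strand) and IGFBP5 (chr2:217536828-217560272, minus strand) are neighbours that face each other tail to tail, 7668 bases apart. IGFBP3 (chr7:45951844-45961473, minus strand) has IGFBP1 as its neighbour, 18584 bases away. IGFBP4 lies at chr17:38599702-38613977 and IGFBP6 at chr12:53491220-53496129, both on the plus strand, and IGFBP7 at chr4:57896939-57976551 on the minus strand. IGFBP7 spans 79613 bases and IGFBP6 4910 bases. IGFBP7 overlaps the antisense RNA IGFBP7-AS1 over 624 bases and the antisense gene POLR2B over 386 bases, and IGFBP5 overlaps DIRC3-AS1 over 1146 bases. Whether the counting used strand is not given in the sources used here, so reads in these overlaps could come from either gene.

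The 100 bases before the TSS are shown for 3 members, since TPL acts at the step of promoter opening. None of the 3 had a listed RNAPII peak within 1000 bases of the TSS in any condition, where only peaks with a TSS in them are listed. They run 5′ to 3′ along the gene and end at the base before the TSS, and capitals mark TATAAA or GGGCGG on either strand. They were read from GRCh37 at chr7:45960872-45960971 (minus), chr17:38599602-38599701 (plus) and chr2:217560273-217560372 (minus).
IGFBP3: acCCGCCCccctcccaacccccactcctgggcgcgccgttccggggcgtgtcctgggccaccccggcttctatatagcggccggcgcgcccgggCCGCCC
IGFBP4: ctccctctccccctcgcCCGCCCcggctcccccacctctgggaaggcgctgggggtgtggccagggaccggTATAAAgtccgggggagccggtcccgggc
IGFBP5: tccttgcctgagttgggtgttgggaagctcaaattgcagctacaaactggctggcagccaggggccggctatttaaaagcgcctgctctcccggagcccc

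The promoters differed in base composition, described here for 5 members. Over the 250 bases before the TSS, IGFBP3 had 76% G or C and 32 CpG dinucleotides, IGFBP4 71.6% and 24 and IGFBP2 69.2% and 22, against a median of 63.2% and 18 over 19856 protein-coding genes. IGFBP5 and IGFBP6 were below that median, each at 61.2%, with 8 and 9 CpGs. TATAAA, the core of the TATA box, was found in the IGFBP4 window, where it begins 29 bases before the TSS, and in 9.26% of all promoters. GGGCGG, the core of the GC box bound by SP1-type factors, had 2 matches in the IGFBP3 window, 1 each in those of IGFBP2, IGFBP4 and IGFBP6 and 0 in that of IGFBP5, and was found in 59.2% of all promoters. These matches describe letters only, and only the exact strings were searched. The printed sequences of IGFBP3 (tatata) and IGFBP5 (tatttaaaa) hold related stretches of A and T that were not counted. Whether these act as a TATA box was not tested.

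IGFBP7 and IGFBP6 were the most abundant members in every group. Together they made up between 76.7 and 93.6% of the FPKM summed over the 6 members in a library. In NT cells IGFBP7 was at 21.62 ± 1.53 FPKM and IGFBP6 at 21.54 ± 4.33 (mean ± SD, n = 2 here and below), and their libraries overlapped. Both also overlapped in NT + TPL, at 35.27 ± 7.39 and 33.85 ± 1.12 FPKM. In TAM cells all IGFBP7 libraries lay above all IGFBP6 libraries, at 20.27 ± 9.54 against 8.46 ± 0.19 FPKM, and likewise in TAM + TPL, at 28.16 ± 4.26 against 12.59 ± 1.24.

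IGFBP3 and IGFBP4 came next in NT and NT + TPL cells, in opposite order. In NT cells IGFBP3 was at 5.25 ± 0.28 FPKM, above IGFBP4 at 3.01 ± 0.69 in both libraries of each. In NT + TPL the order was inverted, with IGFBP4 at 3.50 ± 0.53 and IGFBP3 at 1.56 ± 0.02 FPKM and no overlap. In TAM cells IGFBP4 was at 1.27 ± 0.15 FPKM and IGFBP3 at 0.64 ± 0.45, and in TAM + TPL they overlapped, at 2.15 ± 1.05 and 2.60 ± 0.40 FPKM. IGFBP5 and IGFBP2 were at or near 0 in NT cells. In TAM cells IGFBP5, IGFBP4, IGFBP2 and IGFBP3 each overlapped the next in the order of means, and in TAM + TPL so did IGFBP5, IGFBP3 and IGFBP4, with IGFBP2 lowest.

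**Figure D1:**
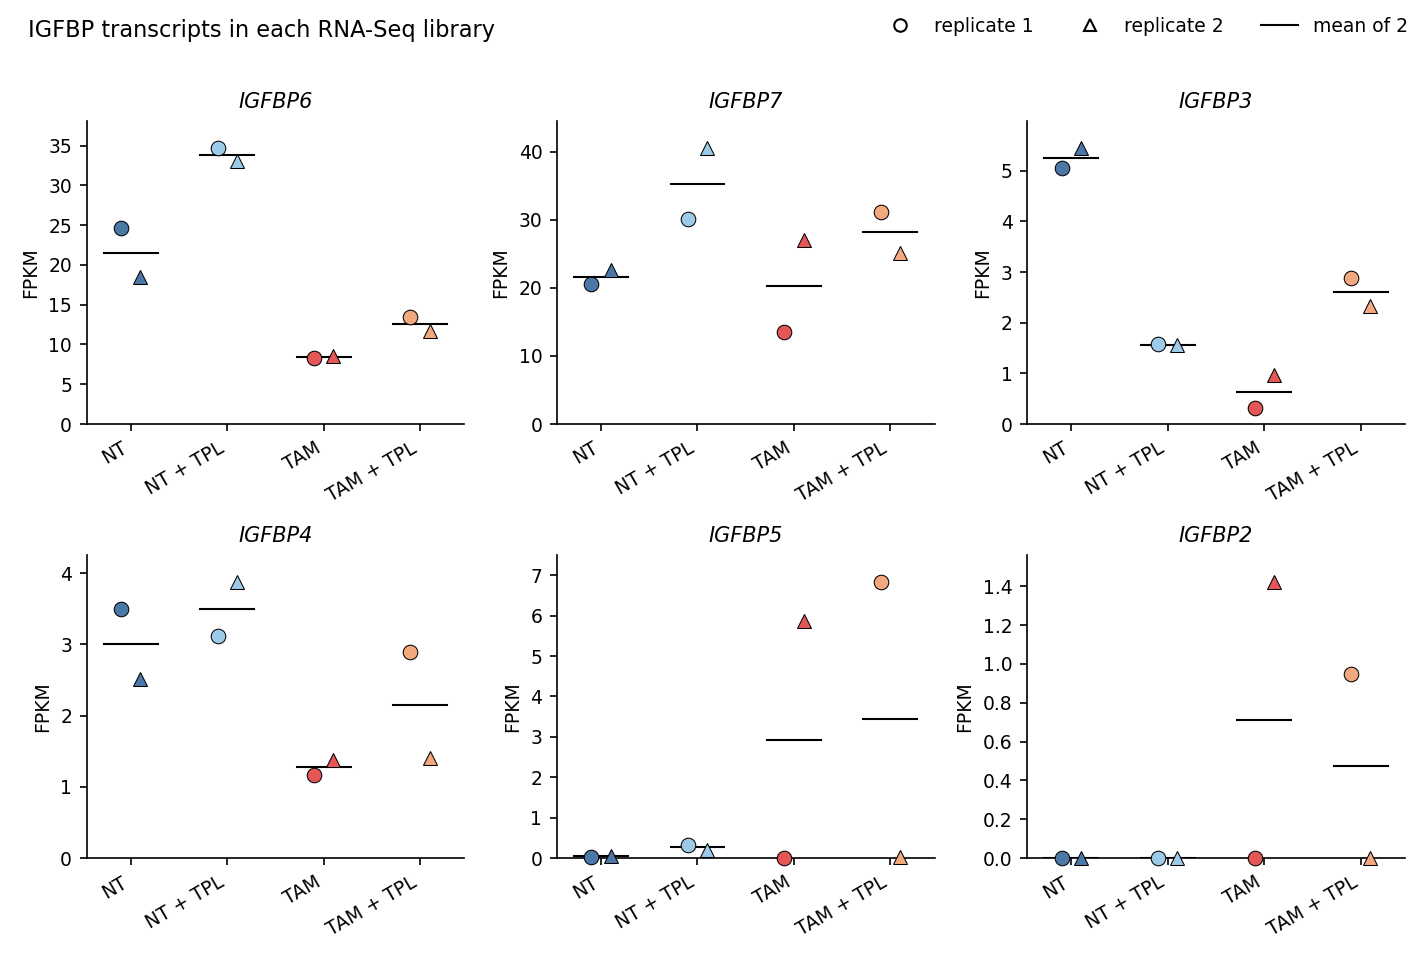
FPKM (linear axes from 0, 1 scale per gene) of the 6 IGFBP genes in the 4 groups, with circles for replicate 1, triangles for replicate 2 and a line at the mean of both. IGFBP3 falls from above 5 to about 1.6 FPKM with TPL in NT cells and rises from below 1 to above 2.3 in TAM cells, and IGFBP5 and IGFBP2 are high in TAM replicate 2 and TAM + TPL replicate 1.

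The first comparison asked how the IGFBP transcripts responded to TPL in untransformed cells. IGFBP3 had 5.05 and 5.44 FPKM in the NT libraries and 1.58 and 1.55 in NT + TPL, from 108 and 116 expected counts to 32 and 31. Both treated libraries lay well below both controls, and the fitted log2 fold change was -1.74 (SE 0.473, 3.35-fold lower, adjusted p = 0.0272, edgeR). IGFBP6, the carrier with a preference for IGF2, had 24.60 and 18.48 FPKM in NT and 34.64 and 33.06 in NT + TPL. It rose by 1.56-fold (log2 0.65, SE 0.198, edgeR adjusted p = 0.0406), with no overlap between the groups.

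The other members did not pass the test in NT cells. IGFBP7 had 20.54 and 22.70 FPKM in NT and 30.05 and 40.50 in NT + TPL, and the interval of its log2 fold change reached from -0.10 to 1.51 (edgeR adjusted p = 0.142). Its antisense neighbour IGFBP7-AS1 had 4.11 and 3.51 FPKM in NT and 5.27 and 4.31 in NT + TPL. IGFBP4 had 3.50 and 2.52 FPKM against 3.12 and 3.87 with TPL, and its groups overlapped. IGFBP5 was counted 2 and 3 times in NT and 16 and 10 times in NT + TPL. The ratio of these counts per library total was 5.54 (exact 95% interval 2.10 to 18.5, counting error only), while the fit across all genes gave an edgeR adjusted p of 0.557, and of 0.141 without TAM replicate 2 and TAM + TPL replicate 1. IGFBP2 had no count in the 4 libraries, which allows at most 3 counts in each.

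In all, 1 of 6 members rose and 1 fell with TPL in NT cells. Without regard to the test, 3 members were higher in both treated libraries than in both controls and 1 was lower, where 36.4% and 32.7% of all genes were. Over all genes tested, 17.2% rose and 19.8% fell, so the members' count of 2 was near the background of 37%. The median log2 fold change was 0.43 over the members and 0.09 over all genes. The members' median takes in IGFBP2, fixed at 0 by its lack of counts here, and IGFBP5, with 5 counts in the NT libraries together (SE 2.996). IGFBP5 was also 1 of the 3 members higher without overlap. IGFBP2 passed the filter on low counts only through TAM replicate 2 and TAM + TPL replicate 1, yet is counted among the 6 members in every comparison. Fold changes are relative to the whole library and so to the other transcripts, and fewer expressing cells and less RNA per cell cannot be told apart. The thresholds the study states are an adjusted p not above 0.001 and a log2 fold change not below 1.2 in size. Applied here and below to the edgeR values, not to the study's own test, they were passed by 0 members, against 3.93% of all genes. Leaving out any of the 4 NT and NT + TPL libraries ended both calls, with adjusted p between 0.0771 and 0.106 for IGFBP3 and between 0.0502 and 0.224 for IGFBP6, while the log2 change of IGFBP3 stayed between -1.81 and -1.70. The IGFBP6 call was also lost with GAPDH as the reference (adjusted p = 0.271), with no filter on low counts (adjusted p = 0.0746) and with a replicate block (adjusted p = 0.0539). It was lost too without the 2 TAM libraries that stood apart, although that fit keeps all NT and NT + TPL libraries. The log2 fold change of IGFBP6 was nearly the same there, at 0.64.

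In TAM cells the same treatment was compared in the transformed state, and IGFBP3 moved the other way. It had 0.32 and 0.96 FPKM in the TAM libraries and 2.89 and 2.32 in TAM + TPL, from 7 and 21 to 57 and 50 expected counts. All treated libraries lay above the controls, and the log2 fold change was 1.97 (SE 0.494, 3.93-fold, edgeR adjusted p = 0.0228). IGFBP3 with TPL therefore stood at 1.55 to 1.58 FPKM in NT cells and 2.32 to 2.89 FPKM in TAM cells, a narrower gap than between the DMSO groups. In the paper, IGFBP3 is likewise named as lowered by TPL in NT cells and raised in TAM cells.

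IGFBP6 had 8.33 and 8.60 FPKM in TAM and 13.46 and 11.71 in TAM + TPL, without overlap. Its log2 fold change of 0.52 (SE 0.207) did not pass in edgeR (adjusted p = 0.0938) and passed with limma on log2(FPKM + 1) (adjusted p = 0.0447). IGFBP4 had 1.17 and 1.38 FPKM in TAM and 2.90 and 1.41 in TAM + TPL, so that 1 treated library stood just above the controls. IGFBP7 had 13.53 and 27.02 FPKM in TAM and 31.17 and 25.15 in TAM + TPL, and the groups overlapped. The intervals of their log2 fold changes were -0.34 to 1.75 for IGFBP4 and -0.38 to 1.23 for IGFBP7.

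Thus 1 of 6 members rose and 0 fell with TPL in TAM cells, beside 14.3% and 18.6% of all genes and 33% in either direction. At an unadjusted p under 0.05 there were 2 members, both higher with TPL. The groups did not overlap for 3 members, all higher with TPL, where 40% of all genes were higher and 34.7% lower without overlap. At the study's thresholds 0 members passed, against 2.88% of all genes. The IGFBP3 call was lost without TAM replicate 1, without TAM + TPL replicate 1, without TAM + TPL replicate 2 and without the 2 libraries that stood apart. Its direction was kept in each. Without the 2 libraries, with 1 library left in each TAM group, the log2 fold change was larger, at 2.79.

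Whether the TPL effects differed between TAM and NT cells was tested as an interaction. For IGFBP3 the difference was 3.72 on the log2 scale (SE 0.684, interval 2.10 to 5.34), with all libraries lower in one state and all higher in the other. Without the 2 libraries that stood apart, which leaves 1 library in each TAM group, it was 4.55. With all libraries its edgeR adjusted p was 0.139, so 0 of 6 members passed, beside 0.165% of all genes. At an unadjusted p under 0.05 there was 1 member, IGFBP3, which passed with DESeq2 (adjusted p = 2.16e-05) and with limma on log2(FPKM + 1) (adjusted p = 0.0379), and not with limma on log2(FPKM + 0.1). The differences of IGFBP6 and IGFBP7 were -0.12 (interval -0.80 to 0.56) and -0.28 (interval -1.42 to 0.85), which leaves room for a difference in either direction.

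The TAM and NT states were then compared with DMSO, using the same control libraries as above. IGFBP3 was at 0.32 and 0.96 FPKM in TAM against 5.05 and 5.44 in NT, a log2 fold change of -3.01 (SE 0.504, 8.07-fold lower, edgeR adjusted p = 0.0160). IGFBP6 was at 8.33 and 8.60 FPKM against 24.60 and 18.48, a log2 fold change of -1.33 (SE 0.206, 2.51-fold lower, edgeR adjusted p = 0.0119). Both were therefore lower in TAM than in NT cells, and neither had overlapping groups. TAM cells differed from NT cells in tamoxifen exposure as well as in state. IGFBP4, an inhibitory carrier that PAPPA cuts, was also lower in both TAM libraries (1.17 and 1.38 against 3.50 and 2.52 FPKM). Its log2 fold change of -1.22 (SE 0.440) did not pass (edgeR adjusted p = 0.183), except with GAPDH as the reference (adjusted p = 0.0460). IGFBP7 overlapped between the states, with 13.53 and 27.02 against 20.54 and 22.70 FPKM.

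Hence 2 of 6 members fell and 0 rose in TAM cells with DMSO, beside 3.39% and 3.46% of all genes (6.84% in either direction). Lower without overlap were 3 members and higher 0, where 28.7% and 24% of all genes were. At the study's thresholds 0 members passed, against 0.655% of all genes. Leaving out either NT replicate ended the IGFBP3 call (adjusted p = 0.0702 and 0.0812). The IGFBP6 call ended without NT replicate 1, TAM replicate 1 or TAM replicate 2. Both calls ended without the 2 libraries that stood apart, which leaves 1 TAM library. The log2 fold changes were then -4.01 for IGFBP3 and -1.36 for IGFBP6.

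With TPL in both states, IGFBP6 was again lower in TAM cells, at 13.46 and 11.71 against 34.64 and 33.06 FPKM. Its log2 fold change was -1.45 (SE 0.203, 2.74-fold lower, edgeR adjusted p = 0.00798). IGFBP3 had a log2 fold change of 0.71 (interval -0.40 to 1.81, edgeR adjusted p = 0.453), although both TAM + TPL libraries lay above both NT + TPL libraries. IGFBP4 had 2.90 and 1.41 against 3.12 and 3.87 FPKM and IGFBP7 31.17 and 25.15 against 30.05 and 40.50 FPKM, and neither passed. This gave 1 of 6 members lower and 0 higher, beside 4.21% and 2.83% of all genes (7.03% in either direction). Without overlap 2 members were lower and 1 higher, where 23.8% of all genes were lower and 23.8% higher, and 0 members passed at the study's thresholds, against 0.596% of all genes. IGFBP6 did not pass without TAM + TPL replicate 1, without TAM + TPL replicate 2 or without the 2 libraries that stood apart. In the last of these, with 1 TAM + TPL library left, its log2 fold change was -1.56.

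**Figure D2:**
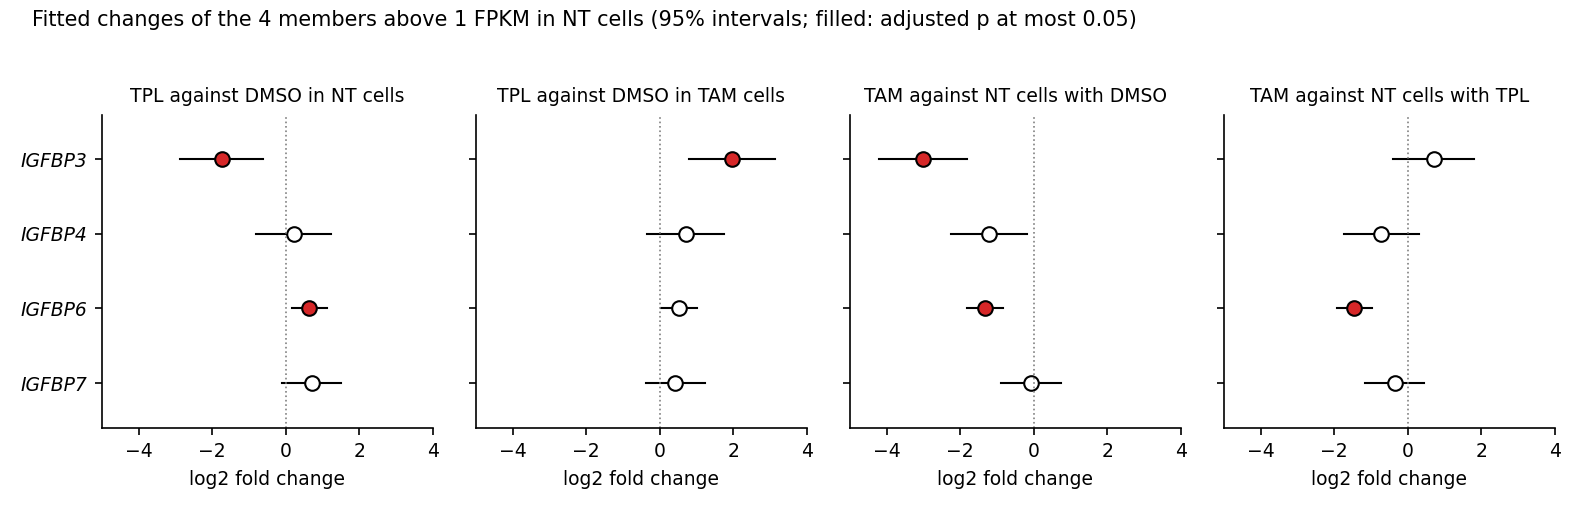
Fitted log2 fold changes (points) with 95% intervals (lines) of IGFBP3, IGFBP4, IGFBP6 and IGFBP7 in 4 comparisons, filled where the edgeR adjusted p was at most 0.05. IGFBP3 sits at -1.74 in the panel for TPL in NT cells and at 1.97 in that for TAM cells, and IGFBP6 is lower in TAM than in NT cells with DMSO (-1.33) and with TPL (-1.45).

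IGFBP5, a carrier that also binds extracellular matrix, varied between replicates of one group more than between groups. It had 0 FPKM in TAM replicate 1 and 5.86 in TAM replicate 2 (0 and 314 expected counts), and 6.82 FPKM in TAM + TPL replicate 1 and 0.04 in replicate 2 (328 and 2 expected counts). The NT libraries had 0.04 and 0.06 FPKM and the NT + TPL libraries 0.32 and 0.21. The high libraries thus carried different treatments and different replicate numbers. TAM against NT with DMSO gave a log2 fold change of 5.88 with an interval of -0.78 to 12.54 (edgeR adjusted p = 0.315), and without the 2 libraries it was -4.38 (adjusted p = 0.552).

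IGFBP2 was the least counted member. Its gene ID entry was listed in 2 libraries, TAM replicate 2 with 1.42 FPKM and TAM + TPL replicate 1 with 0.95 FPKM. A further entry, listed under a RefSeq transcript of IGFBP2, had 4.77 and 5.02 FPKM in these libraries, 0.24 in TAM replicate 1 and 0.24 in TAM + TPL replicate 2. In NT cells this entry was at 0.12 FPKM in both libraries, and in NT + TPL at 0 and 0.39. Both entries thus had their high values in the libraries where IGFBP5, its neighbour on chromosome 2, was high. With both entries summed, TAM against NT with DMSO gave a log2 fold change of 4.70 (SE 2.15, edgeR adjusted p = 0.294).

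The ligand IGF2 was high in the same libraries. It had 1.15 FPKM in TAM replicate 2 and 1.31 in TAM + TPL replicate 1 and at most 0.11 in the other 6. The 3 genes of at least 1 FPKM whose log2(FPKM + 1) was most correlated with IGFBP5 over the 8 libraries were the transcript entry of IGFBP2 (r = 0.98), the long non-coding RNA UCA1 (r = 0.97) and LCN2, a secreted iron-siderophore carrier (r = 0.95). UCA1 had 3.46 and 4.00 FPKM in the 2 libraries and LCN2 14.65 and 16.79, against at most 0.58 and 3.22 FPKM in the other 6. These correlations are descriptions that rest on the 2 libraries, and what set the libraries apart was not tested.

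**Figure D3:**
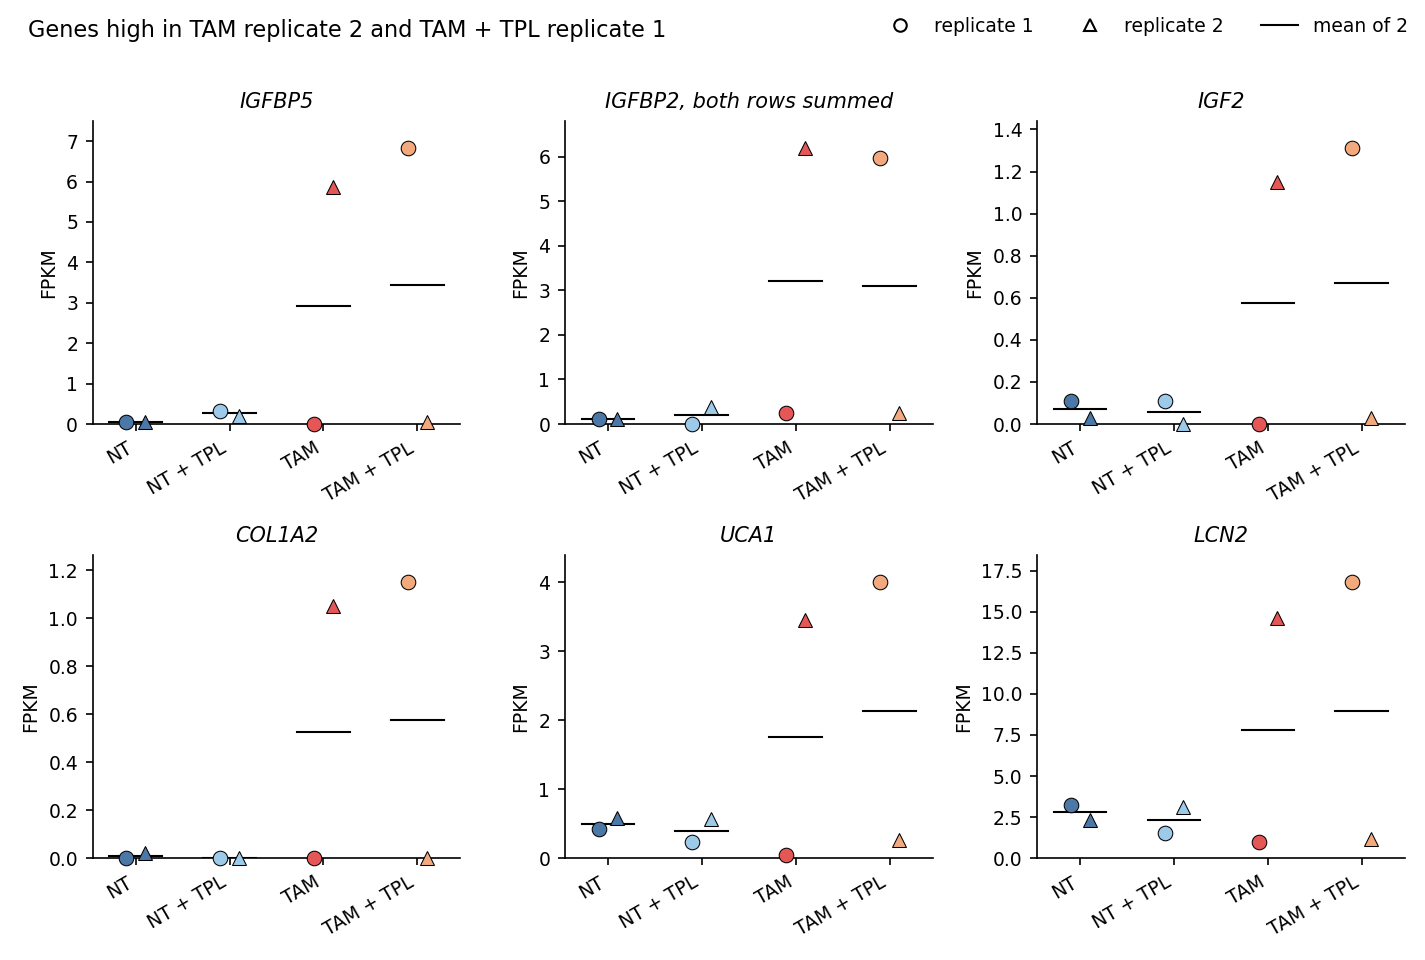
FPKM (linear axes from 0) by group of IGFBP5, of IGFBP2 with both entries summed, and of IGF2, COL1A2, UCA1 and LCN2, with circles for replicate 1, triangles for replicate 2 and a line at the mean. In each panel TAM replicate 2 and TAM + TPL replicate 1 are the highest libraries, with IGFBP5 at 5.86 and 6.82 FPKM.

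The peak lists answered whether RNAPII was called at the start sites of these genes. Of the 6 members, 2 had a peak over the TSS in NT cells and 0 in the other 3 lists. The IGFBP6 peak was at chr12:53491361-53492197, 837 bases wide, from 90 bases before to 746 bases after the TSS, covering the start of the gene. It was wider than 64.9% of NT peaks. The IGFBP7 peak was at chr4:57976410-57976670, 261 bases wide, from 119 bases before to 141 after the TSS. It was wider than 10.4% of NT peaks and did not count when only peaks of at least 300 bases were kept. For IGFBP3, the nearest listed peak was between 151945 and 151999 bases from the TSS in the 4 lists, and for IGFBP4 between 25368 and 58002 bases. The lists hold only peaks with a TSS in them. These are thus distances to peaks over other start sites, and nearer peaks without a TSS would not be listed.

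The 2 genes with a peak were the 2 most abundant members. Over 19856 protein-coding genes, 47.8% had a peak in the NT list and 42.1% in the TAM list, and with TPL it was 38.3% of NT and 37.4% of TAM. Among genes of 10 to 50 FPKM, the range of IGFBP6 and IGFBP7 in most libraries, NT had 88.7% and TAM 82.7%, and their TPL lists had 73.7% and 77.3%. IGFBP6 and IGFBP7 in NT + TPL therefore were without a listed peak at 33.85 and 35.27 FPKM, while most genes of that range had one. Of the genes with a peak in NT, 7.23% were in no other list, which held for both members. IGFBP3 and IGFBP4 had no peak at a level of 1 to 10 FPKM in NT cells, where 66.9% of genes had one. Each list is a single set without replicates, so no test was made. Its peak names carry the label of replicate 1, and those of the TAM list name another cutoff (q of 0.1) than the other 3 (0.02), so absence from a list depends on the calling.

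**Figure D4:**
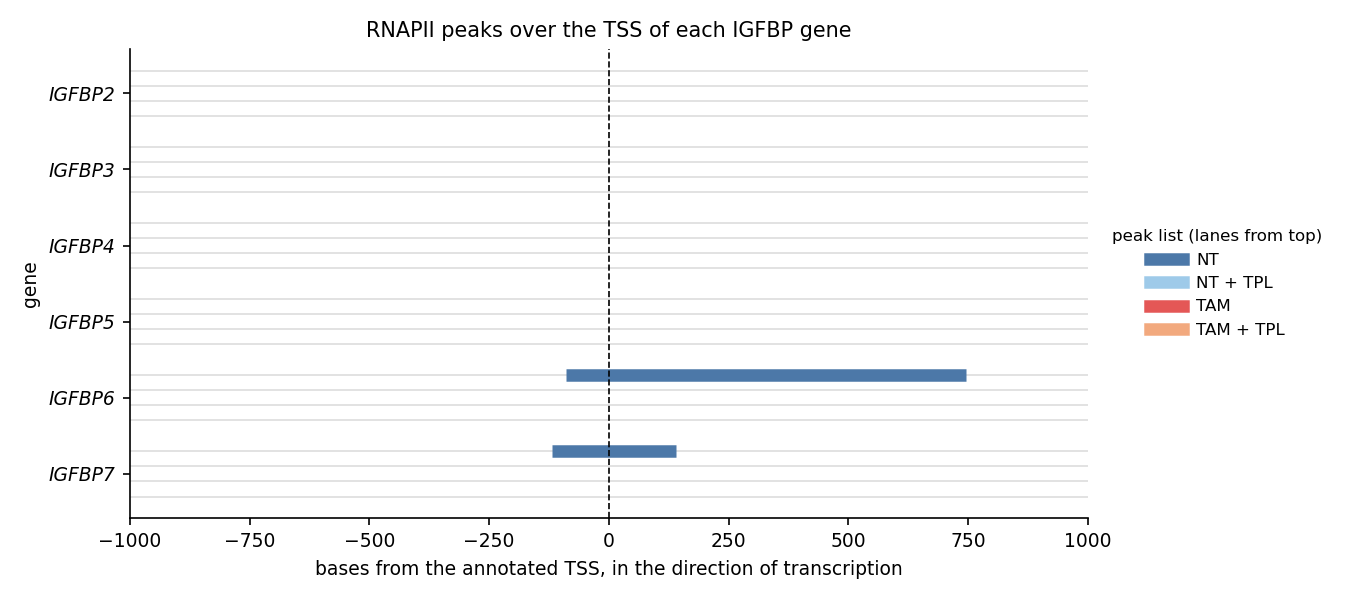
Listed RNAPII peaks (bars) within 1000 bases of the TSS of each IGFBP gene, in bases along the direction of transcription, with 1 lane for each of the 4 lists. Bars are drawn in the NT lanes of IGFBP6 (837 bases) and IGFBP7 (261 bases), and no other lane has one.

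The other genes of the pathway were described in 8 lists holding 44 genes, of which 35 were tested. With TPL in NT cells 4 rose and 11 fell, and in TAM cells 5 rose and 6 fell. Between TAM and NT cells 4 were higher and 4 lower with DMSO, and 4 higher and 3 lower with TPL. With TPL, 42.9% of the 35 passed in NT and 31.4% in TAM cells, near the 37% and 33% of all genes. By direction, 17.2% of all genes rose and 19.8% fell in NT cells, and 14.3% and 18.6% in TAM cells. Between the states, 22.9% passed with DMSO and 20% with TPL, above the 6.84% and 7.03% of all genes. Of all genes, 3.46% were higher and 3.39% lower with DMSO, and 2.83% and 4.21% with TPL. The lists were chosen with earlier results of these data known. For the difference between TPL effects, 0 passed in edgeR and 4 with DESeq2. Without the 2 libraries that stood apart, all calls kept their direction, and 10 of 15 still passed with TPL in NT cells, 0 of 11 with TPL in TAM cells (adjusted p between 0.0555 and 0.361), 2 of 8 for TAM against NT with DMSO (STC1 and CAV1) and 4 of 7 with TPL (STC1, PAPPA, CAV1 and ITGA5). The median log2 fold change of the 35 genes after TPL was -0.09 in the NT state and -0.01 in the TAM state, beside 0.09 and 0.05 over all genes.

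The ligands themselves were scarce. IGF1 was between 0.19 and 0.39 FPKM in all libraries, insulin (INS) was listed in none, and IGF2 was high in the 2 libraries named above and near 0 elsewhere. Of the receptors, IGF1R fell with TPL in NT cells (9.64 and 12.32 to 7.15 and 4.56 FPKM, log2 -0.92, edgeR adjusted p = 0.0274) and in TAM cells (15.24 and 10.77 to 5.41 and 5.72 FPKM, log2 -1.27, edgeR adjusted p = 0.00993). IGF2R, which takes IGF2 up for breakdown, rose with TPL in TAM cells (7.03 and 6.01 to 13.13 and 14.15 FPKM, log2 1.02, edgeR adjusted p = 0.0235). The insulin receptor INSR did not pass in any comparison.

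Downstream of the receptors, the docking protein IRS2 rose with TPL in both states and was lower in TAM cells. It went from 5.70 and 6.93 to 13.57 and 10.28 FPKM in NT cells (log2 0.91, SE 0.194, edgeR adjusted p = 0.0121) and from 2.32 and 1.87 to 7.43 and 9.02 FPKM in TAM cells (log2 1.92, SE 0.205, edgeR adjusted p = 0.00107). TAM against NT with DMSO gave a log2 fold change of -1.57 (edgeR adjusted p = 0.00599). GRB10, an adaptor that restrains the receptors, fell with TPL in NT cells (log2 -1.41), and SHC1 rose with TPL in TAM cells (log2 0.60). In the PI3K-AKT list of 9 genes, PIK3R1 and PIK3CB, subunits of PI3-kinase, fell with TPL in both states (log2 -2.66 and -2.57 for PIK3R1, -1.63 and -1.23 for PIK3CB), and none of the list passed between TAM and NT cells.

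The proteases that cut IGFBPs and their inhibitors held the largest state differences of the pathway lists. STC1, a stanniocalcin that inhibits PAPPA, was at 2.91 and 2.64 FPKM in NT and 543.32 and 553.23 in TAM (log2 7.64, SE 0.168, edgeR adjusted p = 1.18e-05). PAPPA itself was at 0.28 and 0.46 FPKM in NT and 3.62 and 3.14 in TAM (log2 3.20, SE 0.253, edgeR adjusted p = 0.000844), and rose further with TPL to 11.20 and 10.16 FPKM in TAM + TPL (log2 1.61, SE 0.217, edgeR adjusted p = 0.00238). The protease and its inhibitor were thus both higher in TAM cells, in which its substrate IGFBP4 was at 1.17 and 1.38 FPKM. The related inhibitor STC2 fell with TPL in NT cells (8.61 and 7.48 to 1.70 and 1.68 FPKM, log2 -2.25) and in TAM cells (log2 -1.44). ADAM12, a metalloprotease, was higher in TAM with DMSO (log2 1.65, edgeR adjusted p = 0.0471), and the lysosomal protease CTSD was lower (log2 -1.13).

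Among surface partners, CAV1, the caveolin to which IGFBP3 can bind, had the largest fall between the states. It was at 252.27 and 282.37 FPKM in NT and 28.29 and 33.33 in TAM (log2 -3.11, SE 0.188, edgeR adjusted p = 0.000313), and TPL lowered it in both states (log2 -1.35 and -1.84). LRP1, a further receptor for IGFBP3, was also lower in TAM cells (log2 -2.41 with DMSO and -2.12 with TPL). ITGA5, an integrin subunit for fibronectin, was higher in TAM cells (log2 0.83 and 2.08) and fell with TPL in NT cells (log2 -1.44). TMEM219, the IGFBP3 death receptor, rose with TPL in NT cells (41.30 and 35.56 to 72.29 and 81.41 FPKM, log2 0.996, edgeR adjusted p = 0.00429), where IGFBP3 fell. In TAM cells, where IGFBP3 rose, TMEM219 was also higher with TPL (32.40 and 37.75 to 48.74 and 48.75 FPKM). That change did not pass (log2 0.43, edgeR adjusted p = 0.0841). IGF2BP2, which binds IGF2 mRNA, fell with TPL in both states (log2 -1.87 and -1.59), and IGF2BP3 fell in NT cells (log2 -0.77).

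**Figure D5:**
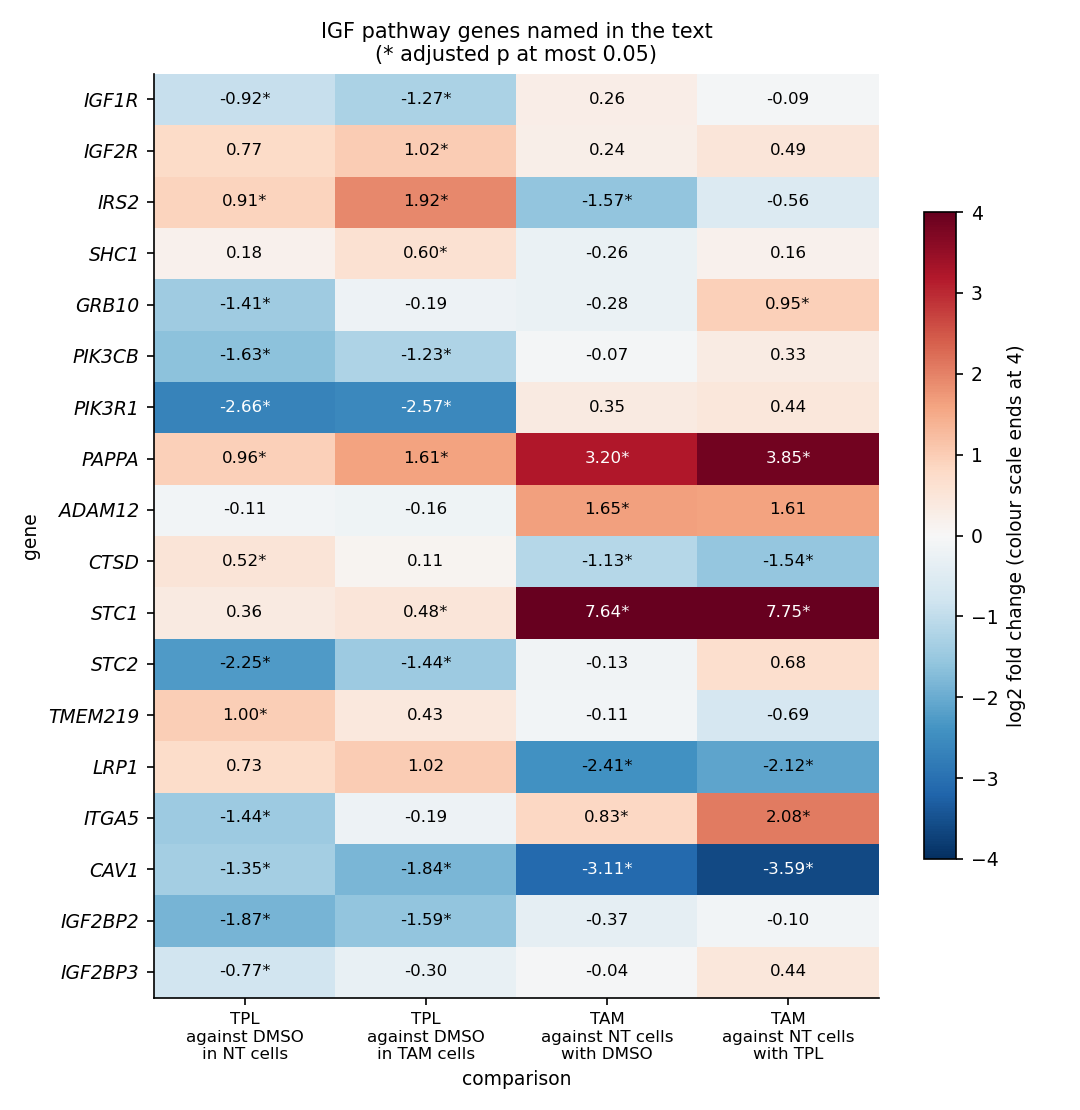
Fitted log2 fold changes (numbers and colour, the colour scale ending at 4 in size) of the IGF pathway genes named in the text, each of at least 1 FPKM and past the test in a comparison, by gene and comparison, with a star where the edgeR adjusted p was at most 0.05. STC1 (7.64) and PAPPA (3.20) are higher and CAV1 (-3.11) lower in TAM than in NT cells with DMSO.

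The genes whose pattern was most like each member over the 8 libraries were taken by Pearson's r of log2(FPKM + 1) among 14134 genes of at least 1 FPKM. The points share libraries and conditions, so r is a description. For IGFBP3 they were RASSF8-AS1 (r = 0.97), SOX9 (r = 0.96) and ZNF251 (r = 0.95). SOX9, a transcription factor of progenitor cells, was highest in NT (8.90 and 9.72 FPKM) and lowest in TAM (0.57 and 1.77 FPKM), as IGFBP3 was. Its TPL libraries had 4.10 and 2.24 FPKM for NT cells and 3.60 and 2.72 FPKM for TAM cells. For IGFBP6 they were STAC2, GM2A and PRODH (each r = 0.99). GM2A, a lysosomal lipid cofactor, went from 79.17 and 71.92 FPKM to 163.41 and 160.54 with TPL in NT cells, and from 22.25 and 20.58 to 39.33 and 35.74 FPKM in TAM cells. For IGFBP4 they were TMEM88 (r = 0.97), IL32 and RBMS2 (each r = 0.96), and for IGFBP7 TRIM4 (r = 0.96), GPR132 and CLDN19 (each r = 0.95).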

How the data were processed

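Poly-A RNA-Seq of 8 libraries and RNAPII peak lists of 4 conditions were analysed. The authors aligned reads to reference transcripts with Bowtie2 and estimated the deposited expected counts (not normalized) and the deposited FPKM (per transcript length and library total) with RSEM. The peak lists were deposited by the authors as starts and ends on hg19, called over input, without score or other signal, and were kept where a TSS lay in the peak. The methods name SOAP2 and MACS2, and the submitters' processing notes name BWA and MACS 1.4.2. Files list genes with a read, and others were taken as 0. Gene IDs gave a symbol for 21077 of 23604 entries, and RefSeq accessions for 2384 others.

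Rounded expected counts were fitted with edgeR 4.0.16 in R 4.3.3 (TMM, filter by group, quasi-likelihood test, Benjamini-Hochberg over 16948 genes), with 4 groups of 2 in a single fit. Passing means an adjusted p of at most 0.05. Group labels came from the sample titles. TSSs were those of Ensembl canonical transcripts. Alternatives were DESeq2 1.42.0, its size factors, library size, GAPDH, no filter, at least 10 counts in every library, the study's thresholds, limma 3.58.1 on log2(FPKM + 1) or log2(FPKM + 0.1), a replicate block, leaving out each library, and 3 chosen after seeing the data (without the 2 TAM libraries, IGFBP2 entries summed, crossed pairs). The fit was tested on simulated data.

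The members and gene lists were chosen with earlier results of these data known. The genes named are the members, IGFBP1, the pathway genes of at least 1 FPKM that passed in a comparison (at most 3 per list and comparison, the largest changes), and the 3 genes most like each member. Named outside that rule were IGF1, IGF2, INS and INSR, cell type markers, GAPDH and the genes that overlap a member. Protein sequences and the ChIP signal were not used here. A pathway gene that the rule names and a promoter sequence are not reported here. Depth was 7461309 to 8349448 counts per library. Figures were drawn with matplotlib 3.10.9.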

Additional observations from a re-analysis of the deposited data

Results flagged for a closer look

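IGFBP3 moved in opposite directions with TPL, down in both NT + TPL libraries and up in both TAM + TPL libraries, a difference of 3.72 on the log2 scale (SE 0.684). The test of that difference gave an adjusted p of 0.139 with edgeR and 2.16e-05 with DESeq2. The paper had already named IGFBP3 as changing in these opposite directions.

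The entry listed under a RefSeq transcript of IGFBP2 lies outside the gene ID entries compared. It reached 40.1 expected counts in TAM replicate 2 and 37.86 in TAM + TPL replicate 1, and at most 3 in the other 6 libraries, the NT controls included.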

How the results depend on the processing

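With 2 libraries per group and few reads for several members, most calls lay near the threshold. The fit without the 2 TAM libraries that stood apart has 1 library left in each TAM group. The number of members past it with TPL in NT cells, 2 in the report, was 1 with GAPDH as the reference, with no filter on low counts, with at least 10 counts in every library, with the replicate block and without the 2 TAM libraries that stood apart, and 0 at the study's thresholds. With TPL in TAM cells (1 in the report) it was 2 with limma under both pseudocounts, and 0 with at least 10 counts in every library, which leaves IGFBP3 out, without the 2 libraries and at the study's thresholds. For TAM against NT with DMSO (2) it was 1 with at least 10 counts in every library and 0 without the 2 libraries or at the study's thresholds, and with TPL (1) it was 0 in both of these. For the difference between TPL effects (0) it was 1 with DESeq2 and with limma on log2(FPKM + 1). The list of pathway genes past the threshold shrank at the study's thresholds to 3, 1, 3 and 4 genes in the same order of comparisons, and without the 2 libraries to 0 for TPL in TAM cells, 2 for TAM against NT with DMSO and 4 with TPL. DESeq2 gave 11 for TAM against NT with TPL and 4 for the difference, and at least 10 counts in every library gave 1 for the difference. Shares over all genes are not given for DESeq2 or for that filter. The peak count of 2 in NT was 1 for peaks of at least 300 bases.

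Leaving out each library in turn, with the lone sample assumed to vary like the other groups, gave 0 members with TPL in NT cells and 0 to 1 in each of TPL in TAM cells, TAM against NT with DMSO and TAM against NT with TPL. Pathway genes then numbered 6 to 7 with TPL in TAM cells, 4 to 6 for TAM against NT with DMSO and 5 to 8 with TPL. Reversals concerned values that passed no test. Over these fits the log2 fold change of IGFBP4 with TPL in NT cells was -0.017 to 0.46 (and -0.12 with GAPDH as the reference), with TPL in TAM cells that of IGFBP2 was -6.09 to 0.35 and that of IGFBP5 -6.23 to 10.42 (-0.035 with GAPDH), and for TAM against NT with DMSO that of IGFBP5 was -4.38 to 6.88 (-4.38 without the 2 libraries) and that of IGFBP7 -0.66 to 0.34. For TAM against NT with TPL, IGFBP5 was at -2.72 to 4.69 (-2.74 without the 2 libraries). For the difference between TPL effects, IGFBP3 was at 3.14 to 4.72 (4.55 without the 2 libraries, 2.44 with limma on log2(FPKM + 1)), IGFBP2 at -6.09 to 0.35, IGFBP4 at -0.12 to 0.93, IGFBP5 at -8.63 to 8.04 (1.65 without the 2 libraries), IGFBP6 at -0.34 to 0.073 (0.095 with GAPDH) and IGFBP7 at -0.70 to 0.31 (0.14 without the 2 libraries). The cause was not tested.

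Deviations of same-numbered libraries with and without TPL showed no positive correlation over genes (-0.14 for NT and -0.05 for TAM). This rests on a single replicate difference per group, so it cannot show whether same-numbered libraries were paired. The replicate block gave 1, 1, 2, 1 and 0 members in the 5 comparisons and changed no other call on members than that of IGFBP6 with TPL in NT cells. Crossed pairs, chosen after seeing the data, gave 2 with TPL in NT cells, 1 in TAM cells and 0 for the difference. In the comparisons in which they passed, IGFBP3 and IGFBP6 kept their direction under every alternative that gave a fold change, which leaves out the crossed pairs (counts only) and, for IGFBP3, the filter of at least 10 counts in every library. With GAPDH as the reference the median log2 change of all genes was between -0.50 and 0.22 in the 5 comparisons, against -0.03 to 0.09 in the report, so values on that scale are relative to this shift. Protein features were planned and not run. At this depth a count of 0 allows up to 3 counts in a library.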
